A study of Mus musculus with 6 samples.

Results

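Integrins, laminins and the proteins that tie basement membranes together were followed through the first days of differentiation of enterospheres, the free-floating spheroids that form in cultures of gut muscle tissue from newborn mice. The 38 genes were chosen by name as integrin subunits, laminin chains, basement membrane linkers and further integrin ligands, and each was taken from the transcript cluster that carries its symbol alone. All 38 were measured, with 1 cluster each, among 19938 genes on the array. The differentiation group held 3 arrays of C57BL/6 enterospheres kept for 9 days in proliferation medium and then for 2 days in differentiation medium. The proliferation group held 3 arrays of C57BL/6 enterospheres kept in proliferation medium for all 11 days. Both groups came from newborn animals, pooled from 3 mice per sample by the labels, and shared the culture steps up to the last transfer, for which spheres that had not attached were picked. Differentiation medium contained ascorbic acid-2-phosphate and lacked EGF and FGF, which proliferation medium contained. The labels also list B27 supplement in proliferation medium. By the methods it was added only before seeding, so it is not counted here as a difference between the groups. The effects of losing the growth factors and of gaining ascorbate cannot be told apart. Enterospheres hold neural progenitors, glia, neurons and mesenchymal cells together, and in such bulk RNA fewer cells of a type and less RNA per cell cannot be told apart either.

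Basement membranes are sheets of laminin and type IV collagen that are joined by nidogen and by the heparan sulfate proteoglycans perlecan and agrin. Cells hold on to them through integrins, which are pairs of an α and a β subunit, and through dystroglycan. In the gut wall these contacts guide neural crest cells, and mice whose neural crest lacks the β1 integrin subunit have a distal colon without ganglia.

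In differentiating enterospheres 6 of the 38 genes rose and 5 fell, while 27 did not pass the test. The words rose and fell stand for an adjusted p under 0.05 from limma, adjusted over all 35556 transcript clusters, of which 4.1% passed. The increases were those of Itga7, Edil3, Hspg2, Itga11, Lama5 and Tnc, and the decreases those of Itgb3, Itga4, Itga8, Itga1 and Lama4. Over all 19938 genes 5.91% passed, 2.94% higher and 2.97% lower, while 28.9% of the 38 did. That share is set by which genes were looked at. The study's own text and tables name 11 of the 38, picked on these samples, and 10 of those 11 passed, which is not independent evidence. Of the other 27 genes only Tnc passed, 3.7%. Taking out genes picked on these samples lowers that share, so it cannot be compared with the share over all genes. The median log2 fold change of the 38 was 0.04, against 0.02 over all genes. In 21 of the 38 the arrays of the groups did not overlap, 8 higher and 13 lower, which is 55.3% against 27.5% over all genes (14.6% higher, 12.9% lower). An unadjusted p under 0.05 was found for 16, where 19.1% of all genes had it, and the methods' t-test was passed by 12, where 5.66% of all genes passed. Leaving out differentiation replicate 1 reduced the number past the test to 3, differentiation replicate 2 to 5 and proliferation replicate 3 to 6.

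**Figure D1:**
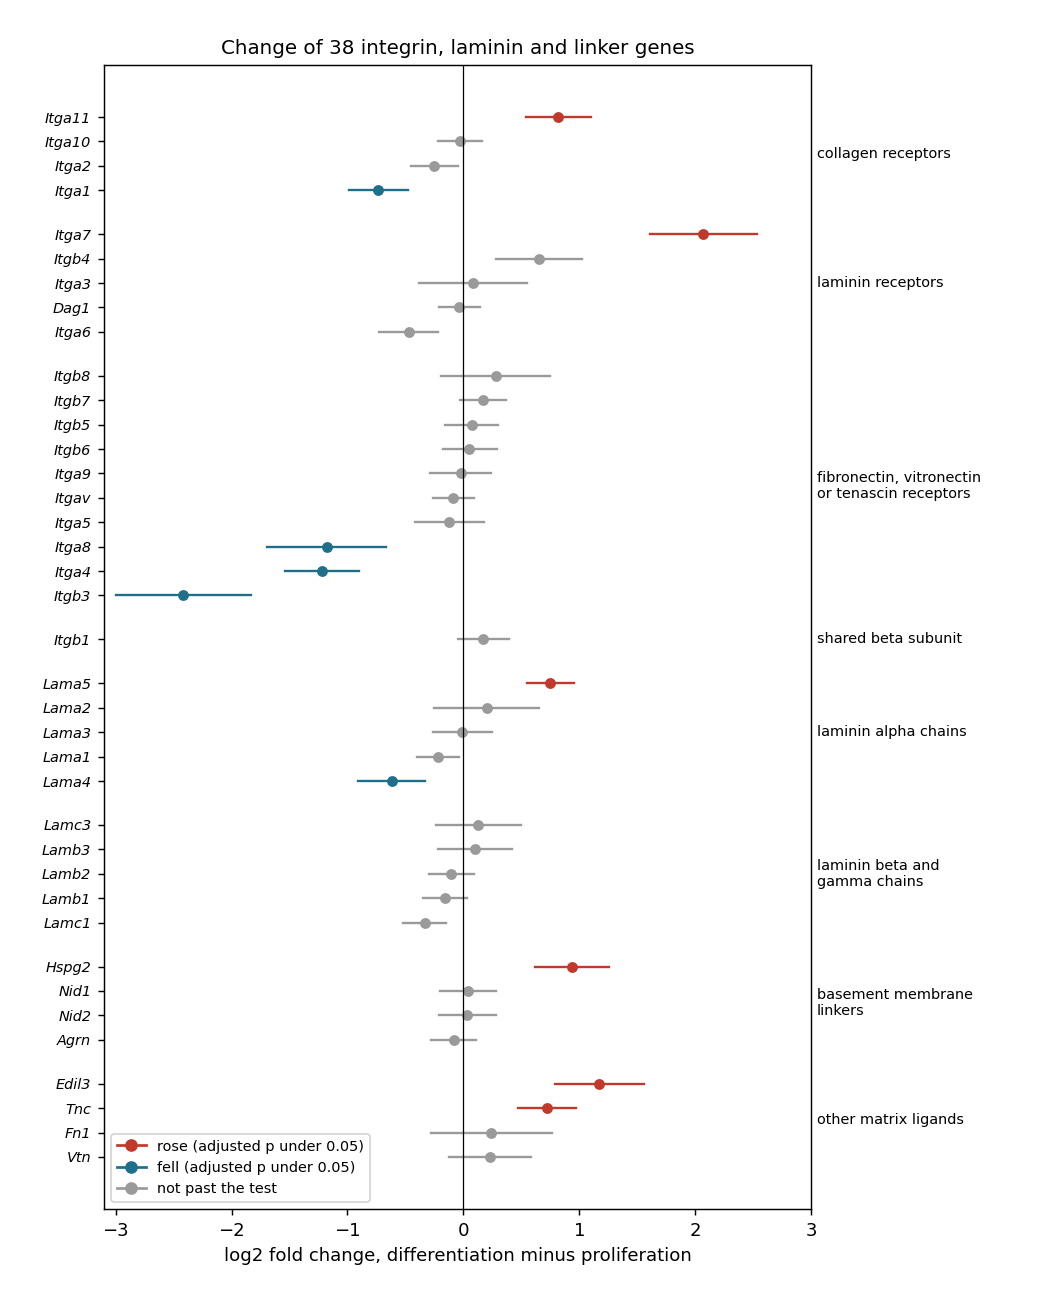
The horizontal axis gives the log2 difference of differentiation minus proliferation for each gene, drawn as a point, and genes are grouped by the role of its protein (vertical axis), with 3 arrays per group. Bars are unadjusted 95% confidence intervals from limma, so some grey genes have a bar clear of 0. The points run between 2.07 for Itga7 and -2.42 for Itgb3, and the β and γ chains of laminin lie close to 0.

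As checks on the material, correlations of 0.988 to 0.995 were found for arrays of the same group and of 0.983 to 0.989 for arrays of different groups. Of 9 measured markers of enteric neural crest progenitors, Tfap2b alone lay below the median of all cluster means, and 2 of the 9 rose, 1 without differentiation replicate 1. Without proliferation replicate 2, 3 of the 9 passed. No call of detection was made, so a value below that median is only named as dim. Of the markers of other cells, 8 of 10 for endothelium, 9 of 10 for macrophages and 8 of 10 for epithelium were dim. Among the 38 genes 7 were dim, Itga10, Itgb6, Itgb7, Lama1, Lama3, Lamb3 and Vtn, and none of those passed the test.

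Receptors for fibronectin, vitronectin and tenascin held the strongest decrease. Itgb3 (transcript cluster 10381809) encodes β3, which joins αv to form a receptor for vitronectin and other ligands with an RGD motif. Its log2 values were 7.13, 7.21 and 7.26 in differentiating enterospheres, against 9.20, 10.22 and 9.44 in proliferating enterospheres. All 3 differentiation arrays lay far below the proliferation arrays, of which replicate 2 was highest. The log2 fold change was -2.42 (standard error 0.25, adjusted p = 0.00565 from limma), a decrease of 5.34-fold, and no omission of an array ended the call. Its partner αv, encoded by Itgav, had a log2 fold change of -0.09 with a 95% confidence interval from -0.26 to 0.09. Itgb5, Itgb6 and Itgb8, which encode the other β subunits that pair with αv alone, had log2 fold changes of 0.07, 0.05 and 0.28 and did not pass. Itgb8 reached 8.63 in proliferation replicate 1 and 7.80 in proliferation replicate 2, and its interval ran up to 0.75. Within the αv receptors Itgb3 was therefore the only chain past the test.

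Itga4 (cluster 10473125) encodes α4, a receptor subunit for fibronectin and for the cell surface protein VCAM1. It measured 8.85, 8.95 and 8.59 in differentiating enterospheres, against 9.82, 10.17 and 10.04 in proliferating enterospheres. The groups lay well apart, and the log2 fold change came to -1.22 (standard error 0.13, adjusted p = 0.00654), a call that no omission of an array ended. Itga8 (cluster 10480090) encodes α8, a subunit of mesenchymal cells whose ligand in the kidney is nephronectin and which also binds fibronectin, vitronectin and tenascin-C. It measured 8.57, 8.91 and 8.57 in differentiating enterospheres, against 10.28, 9.45 and 9.86 in proliferating enterospheres. The log2 fold change was -1.18 (standard error 0.21, adjusted p = 0.0317), with proliferation replicate 2 closest to the differentiation arrays. The call for Itga8 was lost without differentiation replicate 1, 2 or 3 (adjusted p = 0.143, 0.066 and 0.0918) and without proliferation replicate 3 (adjusted p = 0.118). Itga5, the fibronectin receptor subunit, and Itga9, which binds tenascin-C, had log2 fold changes of -0.12 and -0.02, and Itgb7, the second partner of α4, had 0.17. None of these 3 passed.

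The upstream windows of Itga4 and Itga8 are printed to show what precedes the 2 α subunit genes that fell by more than 2-fold. They are the 250 bases before the annotated start in RefSeq (GRCm38.p6), 5′ to 3′ along the gene, at chr2:79255176-79255425 on the plus strand for Itga4 and chr2:12301945-12302194 on the minus strand for Itga8. Capitals mark matches on either strand to 5 motifs, the GC box GGGCGG, the AP-1 site TGANTCA, the TATA box TATAAA, the E-box CACGTG and the TEAD site GGAATG, none of which contains the letters of another.
Itga4: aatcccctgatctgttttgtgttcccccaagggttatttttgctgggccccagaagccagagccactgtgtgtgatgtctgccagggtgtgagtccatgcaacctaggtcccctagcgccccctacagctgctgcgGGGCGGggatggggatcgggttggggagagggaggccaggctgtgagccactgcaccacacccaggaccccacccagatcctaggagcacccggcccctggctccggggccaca
Itga8: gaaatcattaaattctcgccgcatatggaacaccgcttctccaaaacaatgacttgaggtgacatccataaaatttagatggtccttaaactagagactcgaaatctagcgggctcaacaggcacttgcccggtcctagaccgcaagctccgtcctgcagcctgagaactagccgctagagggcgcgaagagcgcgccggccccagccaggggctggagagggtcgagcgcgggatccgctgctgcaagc
The Itga4 window held 1 GC box and the Itga8 window 0 matches to any of the motifs, where 32.7% of 32851 windows in the table held a GC box, 6.75% an AP-1 site, 12.4% a TATA box, 6.02% an E-box and 12.6% a TEAD site. Itgb3, Itga7, Edil3 and Lama4 had no entry in the table.

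Among the laminin receptors Itga7 rose most of all 38 genes. Itga7 (cluster 10367440) encodes α7, the main laminin-binding α subunit of muscle, which pairs with β1. It measured 8.66, 8.60 and 8.87 in differentiating enterospheres, against 6.97, 6.22 and 6.72 in proliferating enterospheres. The lowest differentiation array stood clear of the highest proliferation array. The log2 fold change was 2.07 (standard error 0.19, adjusted p = 0.00438), an increase of 4.2-fold that passed with each array left out. Itgb1, which encodes the β1 subunit shared by most of the α subunits here, had a log2 fold change of 0.17 with an interval from -0.05 to 0.39. Itga6, another laminin receptor subunit, was lower in every differentiation array, at 10.20, 10.21 and 10.16, against 10.52, 10.86 and 10.61 in proliferating enterospheres, and did not pass (log2 fold change -0.47, adjusted p = 0.0659). It passed with limma-trend (adjusted p = 0.0316), among brighter clusters alone (0.0283) and with the adjustment over genes (0.024). Itgb4, the second partner of α6, which anchors hemidesmosomes in epithelia and is also made by Schwann cells, was higher in every differentiation array, at 7.64, 7.61 and 7.67, against 7.34, 6.75 and 6.89 in proliferating enterospheres. Its log2 fold change of 0.65 did not pass (adjusted p = 0.0802), whereas it passed without proliferation replicate 1 (adjusted p = 0.0121), among brighter clusters alone (0.0381) and with the adjustment over genes (0.0284). Itga3 had a log2 fold change of 0.08. Dag1, which encodes dystroglycan, had -0.04 with an interval from -0.21 to 0.14.

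Markers of muscle and glia, cells in which laminin receptors are made, were counted against the 5.91% of all genes that passed. Of 10 smooth muscle markers 4 rose and 1 fell, and their summed level on the log2 scale lay between 11.31 and 11.44 in differentiating enterospheres and between 11.06 and 11.18 in proliferating enterospheres. Tagln, an actin-binding protein of smooth muscle, had a log2 fold change of 1.44, while Smtn, smoothelin of contractile cells, had -0.83. Myh11, Cnn1, Myocd and Lmod1 of that list were dim. Of 8 glial markers 4 rose and 2 fell, with a summed level between 14.01 and 14.15 in differentiating enterospheres and between 13.58 and 13.75 in proliferating enterospheres, and none was dim. Of 5 markers of interstitial cells of Cajal 1 fell, Ano1. Their summed level lay between 12.37 and 12.49 in differentiating enterospheres and between 12.70 and 12.97 in proliferating enterospheres. The log2 fold change was negative for 4 of the 5 and positive for 1. Kit, which the paper lists as downregulated, had -0.85 and narrowly did not pass (adjusted p = 0.0501 by limma). Prkg1 went the other way, with 0.67 (adjusted p = 0.0804 by limma). Both were named with their values known. The part of these cell types in the changes of Itga7, Itga8 and the other receptors was not tested. The number past the test without differentiation replicate 1 was 2 for smooth muscle, 1 for glia and 0 for interstitial cells, and without proliferation replicate 3 it was 3 for smooth muscle and 3 for glia. Without differentiation replicate 3 it was 3 for glia, and without proliferation replicate 2 it was 2 for interstitial cells.

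The collagen receptors went both ways. Itga11 (cluster 10586079) encodes α11, a receptor for fibrillar collagen on fibroblasts and other mesenchymal cells. It measured 6.49, 6.45 and 6.80 in differentiating enterospheres, against 5.85, 5.77 and 5.67 in proliferating enterospheres, where it lay below the median of all clusters. The groups did not overlap and the log2 fold change was 0.82 (standard error 0.12, adjusted p = 0.015). Itga1 (cluster 10412298) encodes α1, which prefers type IV collagen and is made by smooth muscle and mesenchymal cells. It measured 9.27, 9.33 and 9.34 in differentiating enterospheres, against 10.03, 10.23 and 9.88 in proliferating enterospheres. All differentiation arrays were lower, and the log2 fold change came to -0.74 (standard error 0.11, adjusted p = 0.0152). Itga2, which prefers fibrillar collagen, had a log2 fold change of -0.25 (adjusted p = 0.204) without overlap between the groups, and Itga10, a collagen receptor subunit of cartilage, had -0.03. The call was lost for Itga11 without differentiation replicate 1 or proliferation replicate 3 (adjusted p = 0.0672 and 0.0751), and for Itga1 without differentiation replicate 1 or 2 (adjusted p = 0.0895 and 0.0555).

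**Figure D2:**
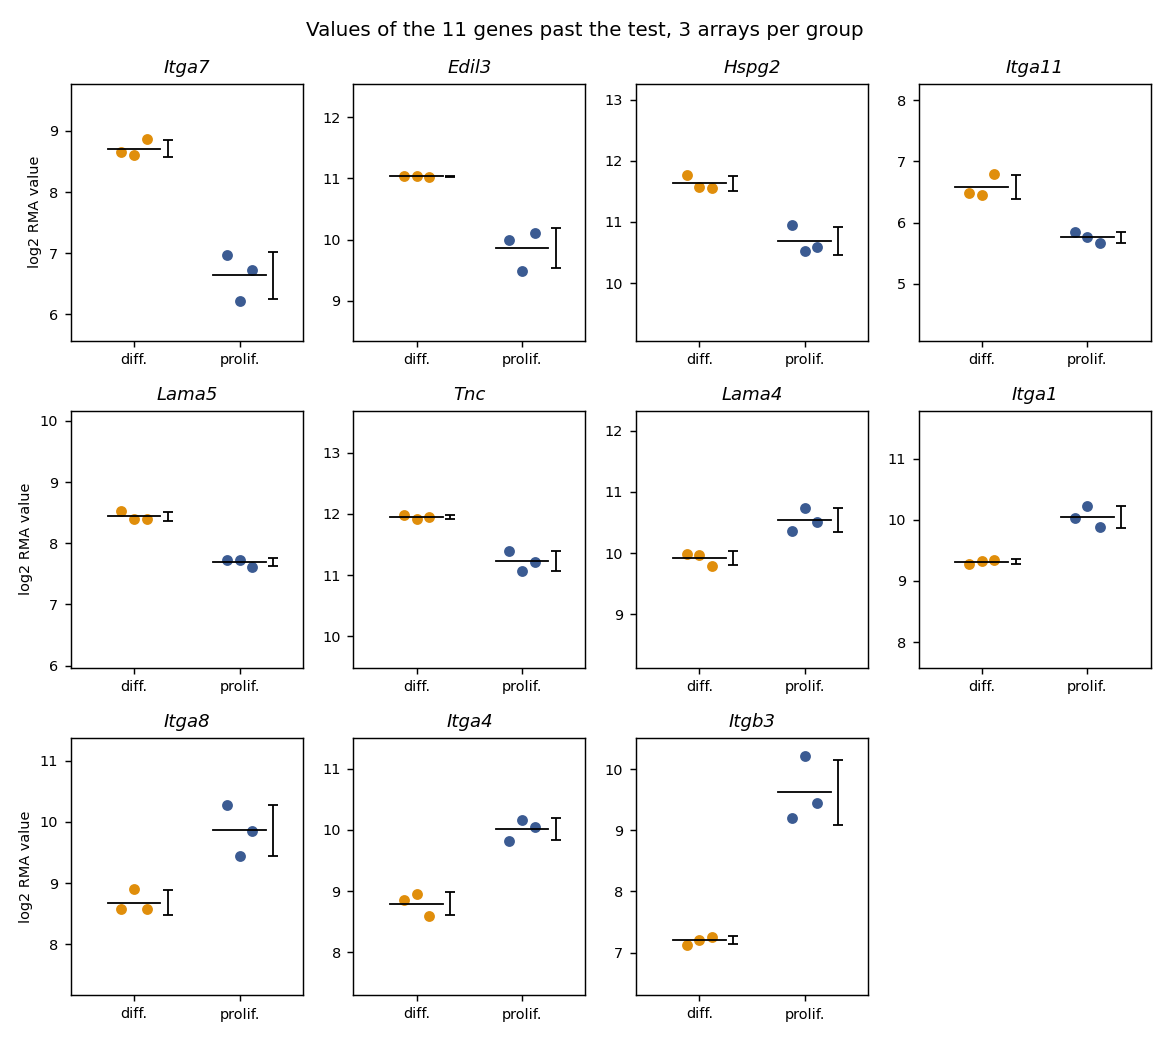
Log2 RMA values (vertical axis) of the 11 genes past the test, with a panel per gene, ordered by fold change. Points are single arrays, 3 in differentiation (left) and 3 in proliferation (right), lines are group means and bars are SDs, and all panels span the same number of log2 units. In each panel the groups do not overlap, and the differentiation points of Edil3, between 11.02 and 11.04, nearly coincide.

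Laminins are trimers of an α, a β and a γ chain, and in enterospheres only α chains passed the test. Lama5 (cluster 10490384) encodes the α5 chain, widespread in mature basement membranes. It measured 8.52, 8.40 and 8.40 in differentiating enterospheres, against 7.73, 7.73 and 7.61 in proliferating enterospheres. Replicates of a group differed little, and the log2 fold change was 0.75 (standard error 0.08, adjusted p = 0.00654). Lama4 (cluster 10362538) encodes the α4 chain, known from vessels, nerves and mesenchyme. It measured 9.99, 9.97 and 9.78 in differentiating enterospheres, against 10.36, 10.74 and 10.51 in proliferating enterospheres. The difference on the log2 scale was -0.62 (standard error 0.12, adjusted p = 0.0415). Lama5 did not pass without differentiation replicate 1 (adjusted p = 0.0508). Lama4 lost its call without any of 5 arrays, differentiation replicate 1, 2 or 3 and proliferation replicate 2 or 3 (adjusted p = 0.136, 0.104, 0.102, 0.0786 and 0.14). Lama2, the α2 chain of muscle and peripheral nerve, had a log2 fold change of 0.20, with 9.43 in proliferation replicate 1 and 8.70 in proliferation replicate 2. The dim chains Lama1 and Lama3 had -0.22 and -0.01.

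None of the β and γ chains passed. Lamc1 encodes γ1, the γ chain of most laminins, and measured 10.52, 10.51 and 10.53 in differentiating enterospheres, against 10.88, 10.91 and 10.77 in proliferating enterospheres. Its log2 fold change of -0.33 did not pass (adjusted p = 0.0729), although the groups did not overlap, and it passed with limma-trend (adjusted p = 0.0216), among brighter clusters alone (0.0275) and with the adjustment over genes (0.0303). Lamb1 and Lamb2, the β chains that join it, had -0.16 and -0.11, again lower in every differentiation array. Lamb3 and Lamc3 had 0.10 and 0.13, and their groups overlapped.

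The linkers were led by Hspg2 (cluster 10509280), which encodes perlecan, a large heparan sulfate proteoglycan that binds laminin, nidogen and growth factors. It measured 11.77, 11.57 and 11.55 in differentiating enterospheres, against 10.95, 10.53 and 10.59 in proliferating enterospheres. The difference on the log2 scale was 0.94 (standard error 0.13, adjusted p = 0.0142). Agrn, which encodes agrin, a heparan sulfate proteoglycan that binds laminin and dystroglycan, had -0.08. The nidogens Nid1 and Nid2, which bridge laminin and type IV collagen, had 0.04 and 0.03, with intervals from -0.20 to 0.28 and from -0.21 to 0.28. The call for Hspg2 was lost without differentiation replicate 1 or 2 or proliferation replicate 3 (adjusted p = 0.0778, 0.0504 and 0.0721).

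Of the other matrix ligands, Edil3 (cluster 10406504) encodes a secreted protein with an RGD motif that binds αvβ3 and αvβ5. It measured 11.04, 11.04 and 11.02 in differentiating enterospheres, against 10.00, 9.49 and 10.10 in proliferating enterospheres. The spread lay in the proliferation arrays, and the log2 fold change was 1.17 (standard error 0.16, adjusted p = 0.0124). Tnc (cluster 10513739) encodes tenascin-C, a matrix glycoprotein of developing tissue that lies along the path of neural crest cells. It measured 11.98, 11.91 and 11.95 in differentiating enterospheres, against 11.40, 11.07 and 11.21 in proliferating enterospheres. The difference on the log2 scale was 0.72 (standard error 0.10, adjusted p = 0.0147). Fn1, fibronectin, had a log2 fold change of 0.24 and did not pass. Its differentiation arrays lay at 12.61, 12.54 and 12.57, within the range of the proliferation arrays at 12.78, 11.85 and 12.38. Vtn, vitronectin, was dim and had 0.23. The call was lost for Edil3 without differentiation replicate 1 or 2 (adjusted p = 0.0719 and 0.0515), and for Tnc without differentiation replicate 1 or 2 or proliferation replicate 3 (adjusted p = 0.0872, 0.0518 and 0.0751).

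The windows of Lama5 and Hspg2 are printed as those of a laminin chain and a linker that rose, from the same table and with the same motifs in capitals, at chr2:180225860-180226109 on the minus strand and chr4:137468553-137468802 on the plus strand.
Lama5: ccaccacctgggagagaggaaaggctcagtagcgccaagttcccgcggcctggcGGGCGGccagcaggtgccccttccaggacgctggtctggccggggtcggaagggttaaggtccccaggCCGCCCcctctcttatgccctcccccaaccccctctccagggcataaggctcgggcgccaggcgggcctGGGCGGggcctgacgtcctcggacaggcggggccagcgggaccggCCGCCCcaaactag
Hspg2: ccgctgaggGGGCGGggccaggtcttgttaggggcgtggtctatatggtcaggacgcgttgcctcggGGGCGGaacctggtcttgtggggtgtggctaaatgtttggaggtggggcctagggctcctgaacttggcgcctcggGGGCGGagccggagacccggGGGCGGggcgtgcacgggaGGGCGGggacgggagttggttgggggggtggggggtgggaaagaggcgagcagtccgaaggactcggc
The Lama5 window held 4 GC boxes and the Hspg2 window 5, with a GC content of 72.4% and 70%, against a median of 52.4% over all windows in the table. Their capitals are GC boxes alone. Of 8 windows of the 7 genes past the test with an entry, 5 held a GC box and 2 a TATA box. Both counts include the 2 overlapping windows of Tnc, which hold the same GC box and the same TATA box. An AP-1 site, an E-box or a TEAD site was held by 0.

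Receptors and their ligands were set side by side. For Itgb3, which fell, Edil3 and Tnc rose among the αv ligands chosen for this comparison, while Fn1, Vtn and Tgfb1 did not pass. Those chosen are not all ligands of αv. Of 38 other integrin ligands, not sorted by receptor, 3 rose and 1 fell, Adam23 with -0.54. For Itga4 at -1.22, Fn1 had 0.24 and Vcam1 -0.17. Madcam1, the ligand of the α4 and β7 pair, was dim and had 0.28. For Itga8 at -1.18, Tnc rose and Npnt, nephronectin, had a log2 fold change of 0.57 (adjusted p = 0.145). For Itga7 at 2.07, the ligand chain Lama5 rose, Lama4 fell and Lama2 had 0.20. The type IV collagen genes Col4a1 and Col4a2, ligands of the α1 subunit, had -0.29 each (adjusted p = 0.101 and 0.119) beside -0.74 for Itga1. For Itga11 at 0.82, the fibrillar collagen genes Col1a1, Col1a2 and Col3a1 had 0.17, 0.11 and 0.37 and did not pass. Dystroglycan at -0.04 stood beside its ligands Agrn at -0.08, Lama2 at 0.20 and Hspg2, which rose.

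Whether alternative subunits of the same position changed unequally was asked for 14 pairs, by taking the difference of their log2 values within each array. Levels of different genes cannot be compared on these arrays, but a difference between groups in this quantity can. In 13 pairs the differentiation arrays did not overlap with the proliferation arrays, and the smallest two-sided p that 3 arrays against 3 allow, 0.1 by an exact permutation test, was reached (adjusted p = 0.108 over the 14 pairs), so no pair could pass. Over all pairs of genes 31% did not overlap. The pairs were chosen with results known, 10 of the 14 hold a gene past the test and some genes stand in more than 1 pair, so the count is a description. Lamb2 minus Lamb1 was separated only narrowly, at 0.20, 0.14 and 0.19 in differentiation, against 0.14, 0.13 and 0.11 in proliferation. For Itgb5 minus Itgb3 the difference was 2.73, 2.77 and 2.62 in differentiation, against 0.79, -0.50 and 0.37 in proliferation, a difference in change of 2.49 log2 units. That difference was 2.70 for Itgb8 minus Itgb3, 2.55 for Itga7 minus Itga6 and 1.99 for Itga7 minus Itga3. It was 1.55 for Itga11 minus Itga1, 1.37 for Lama5 minus Lama4, 1.19 for Itga9 minus Itga4 and 1.06 for Itga5 minus Itga8. For Agrn minus Hspg2 the values were -0.73, -0.52 and -0.49 in differentiation, against 0.13, 0.72 and 0.49 in proliferation, a difference in change of -1.03. Lama2 minus Lama4, Itgb4 minus Itgb1, Lamc3 minus Lamc1 and Lamb2 minus Lamb1 had 0.82, 0.48, 0.47 and 0.05. The nidogens alone overlapped, with Nid2 minus Nid1 at -0.01 (p = 0.9 by the exact permutation test).

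**Figure D3:**
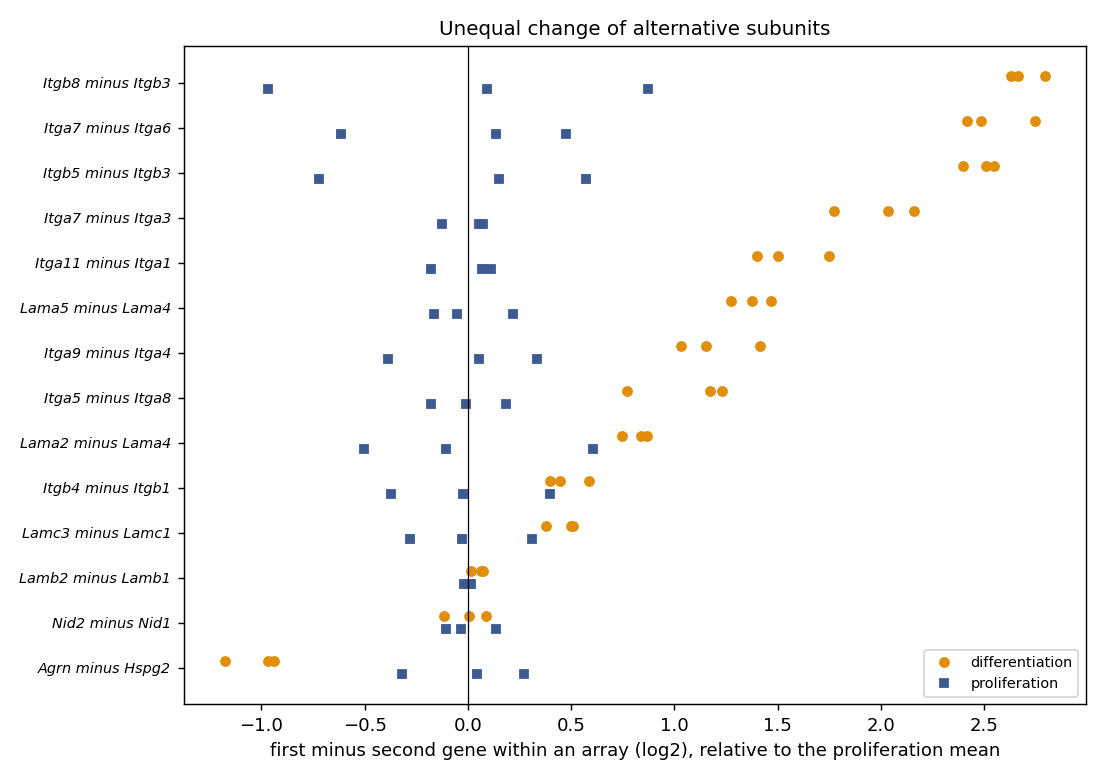
Each row is a pair of genes, and each point an array, placed by the first minus the second gene on the log2 scale after subtraction of the pair's proliferation mean (horizontal axis). Orange circles are the 3 differentiation arrays and blue squares the 3 proliferation arrays. The circles of Itgb8 minus Itgb3, Itga7 minus Itga6 and Itgb5 minus Itgb3 lie farthest to the right, and those of Agrn minus Hspg2 to the left.

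Among the 27 genes that did not pass, the log2 fold changes ran between -0.47 and 0.65, and 5 had an unadjusted p under 0.05. In 22 of them the 95% confidence interval lay within 1.5-fold either way, so that larger changes fall outside it. The 7 dim genes are among these 22, and as no detection was called, their intervals bound the measured values only. The other 5 of the 27 were Itga6, Itgb4, Itgb8, Lama2 and Fn1. Arrays of the differentiation group lay closer together for these genes. The SD was smaller in differentiation than in proliferation for 32 of the 38, with medians of 0.07 and 0.17, while over all genes it was smaller in differentiation for 10892 of 19938, with medians of 0.11 and 0.11. In 14 of the 38, Fn1, Itga3, Itgb8 and Lama2 among them, proliferation replicate 1 was highest of its group and replicate 2 lowest. How many of all genes had that order was not counted. The summed level of 10 fibroblast markers was also highest in proliferation replicate 1, at 14.21, and lowest in replicate 2, at 13.65. In differentiating enterospheres it was 13.84 to 13.99. Summed mesothelial and macrophage markers, most of them dim, had the same order of proliferation arrays, and the other cell type lists did not. The part of any cell type in that spread was not tested.

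**Figure D4:**
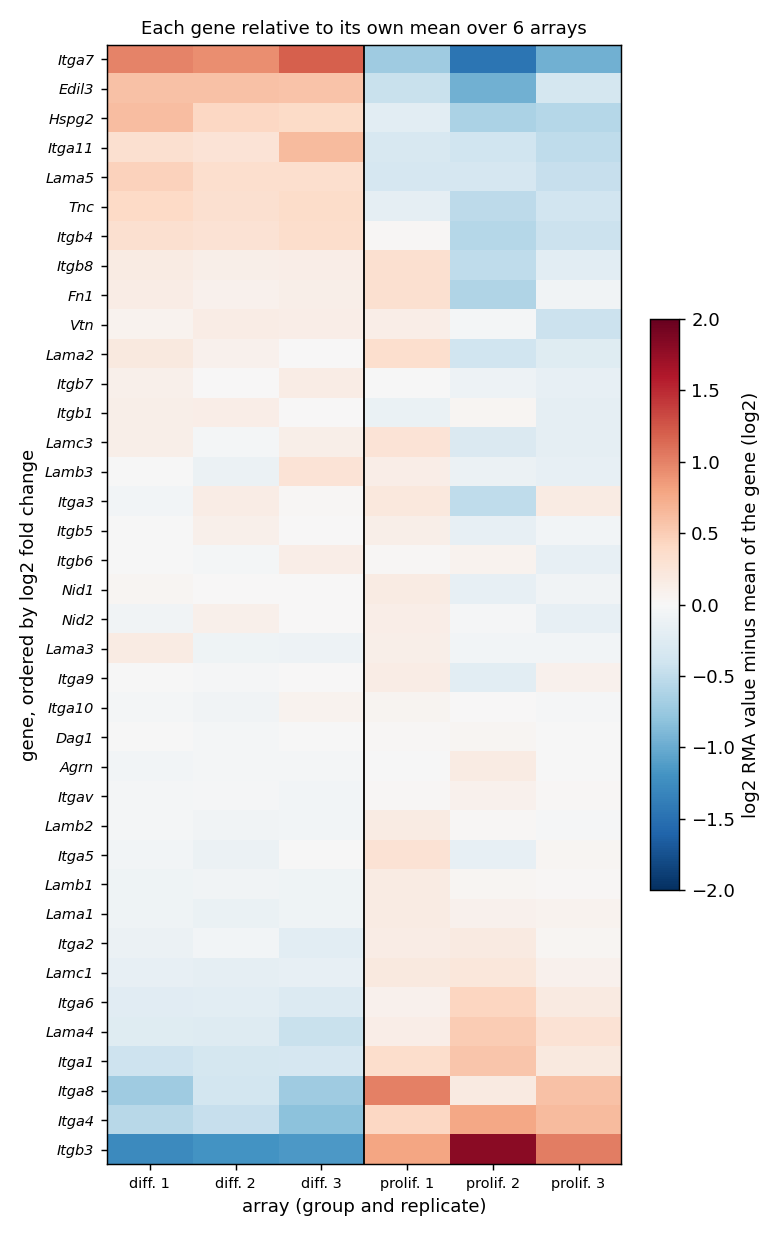
Rows are the 38 genes, ordered by log2 fold change, and columns the 6 arrays, differentiation left of the line. Colour gives the log2 RMA value minus the mean of the gene over the 6 arrays, red above and blue below it. The 3 differentiation columns look alike, while Fn1, Itga3 and Itgb8 vary among the proliferation columns.

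Further genes of the same contacts were counted from lists, to be read against the 5.91% of all genes that passed. Of 44 measured genes of the complex that links integrins to actin, 4 rose and 4 fell, with a median log2 fold change of 0.05. Lims2, an adaptor of integrin-linked kinase, had 0.77 while its relative Lims1 had -0.53, and the focal adhesion protein Tns3 had 0.76 while Tns1 had -0.59. Actn1, an actin crosslinker, and Kank1, which binds talin, had -0.79 and -0.69. The other 2 were the tetraspanins Cd63 and Cd9, with 0.59 and 0.58. Lims1, Tns1, Cd63 and Cd9 were added to the named genes once their values were known. Talin 1, Tln1, had 0.29 (adjusted p = 0.178) and Ilk, the kinase, 0.02.

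Of 30 symbols listed for the dystroglycan complex and its glycosylation 18 were measured, and of those 18 genes 3 rose and 0 fell. The 3 were Sspn (sarcospan), Utrn (utrophin, which ties dystroglycan to actin) and Dtna (dystrobrevin), with log2 fold changes of 0.68, 0.66 and 0.48. The median of the 18 was -0.00, with 10 negative and 8 positive values. Of 10 collagens of basement membranes 1 rose, Col18a1, and of 11 fibrillar collagens 1 rose, Col27a1, with 0.67 and 0.61. These shares, 10% and 9.09%, and the 10.5% of other integrin ligands lie near that of all genes. Of 21 other basement membrane proteins 4 rose, led by Matn2, matrilin-2, with 1.36 and Tinagl1 with 1.29, before Pxdn, which crosslinks type IV collagen, with 0.50 and Egfl6, which was dim, with 0.46. Of 38 other integrin ligands 3 rose, Ccn3 with 1.04, Adam9 with 0.61 and L1cam with 0.41, and Adam23 fell with -0.54. None of 9 genes listed as integrins of leukocytes and platelets passed limma's test, and 8 of the 9 were dim. That list includes Itgbl1, an integrin-like gene that is not a subunit. At an unadjusted p under 0.05 there were 0 of the 9, and by the t-test of the methods 0. Fewer passed without differentiation replicate 1, when the number was 1 in the actin-linking complex, 1 in the dystroglycan complex, 0 in each group of collagens, 1 in the other basement membrane proteins and 1 in the other ligands. Without proliferation replicate 3 these numbers were 3, 1, 0, 1 and 1. With differentiation replicate 2 or 3 omitted, it was 2 or 3 in the actin-linking complex, 1 or 2 in the dystroglycan complex, and 2 each time in the other basement membrane proteins and in the other ligands. Col27a1 was lost when differentiation replicate 3 was omitted. The other ligands numbered 7 without proliferation replicate 1, and the other basement membrane proteins 2 without proliferation replicate 2.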

How the data were processed

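RNA of 6 enterosphere samples was measured on GeneChip Mouse Gene 1.0 ST whole-transcript arrays. The authors used AGCC 3.0, Expression Console 1.0 and Partek Software 6.6 and deposited log2 values made with RMA, which quantile-normalizes arrays, so a change shared by most genes would not be seen. The genome build behind the values is not given in the sources used here. Symbols came from the platform's annotation, in which 21789 of 35556 transcript clusters carry 1 symbol, and of several clusters of a gene the brightest was used. Groups and replicate numbers follow the labels. The methods describe 3 independent experiments and 2 pups for each, where the labels state 3 mice per sample, and no source says that equal numbers mark an experiment.

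Groups were compared with limma 3.58.1 in R 4.3.3 (lmFit and eBayes, two-sided, Benjamini-Hochberg over all clusters), tested on simulated data. Pairs of subunits were compared by exact permutation tests in scipy 1.17.1. Summed levels are log2 of the sum of linear values. Array values carry no counts, so the number of arrays limits precision. The genes, lists, pairs and the rule for naming genes were chosen with earlier results of these data known. The rule gave values per array for genes past the test or with a log2 fold change of at least 1. For each further list it named up to 4 called genes with the largest change, beside ligands and partners of the receptors. Values per array of Itga6, Itgb4, Lamc1 and Fn1 were given outside that rule, with their results known. Hic1, entered in a list by mistake, was taken out after its value had been seen, which changed no count of calls. Alternatives were the methods' t-test, a block for the replicate number, limma-trend (robust), normalization by cyclic loess, centring on the median, brighter clusters alone, the mean of a gene's clusters adjusted over genes, and leaving out each array.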

Additional observations from a re-analysis of the deposited data

How the results depend on the processing

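Apart from the methods' t-test, 12 alternatives were run for each gene. None of the 11 genes past the test changed sign under them, and Itga4, Itga7 and Itgb3 passed under each. The number past the test, 11 (6 higher, 5 lower), lay between 3 and 12 with an array left out (1 to 7 higher, 2 to 5 lower), was 13 with limma-trend and 14 (7 higher, 7 lower) both among brighter clusters alone and with the mean of a gene's clusters, and was 12 by the methods' t-test and 1 (1 higher, 0 lower) by that test after Benjamini-Hochberg adjustment. Over all clusters the number was 1459, lay between 294 and 1297 with an array left out, was 1783 with limma-trend and 2112 among brighter clusters alone, and was 253 by the adjusted t-test. Deviations from the group mean had correlations of -0.003, 0.09 and -0.074 between arrays of equal replicate number, and of -0.175 to 0.157 between arrays of unequal number. The methods describe 3 independent experiments in which picked enterospheres went into 1 or the other medium. No source says which arrays share an experiment, and these values cannot settle it. The main fit therefore leaves out any such pairing. With the replicate block 7 of the 38 genes passed (5 higher, 2 lower) and 664 clusters, and the calls of Itga1, Itga8, Itga11 and Lama4 were lost (adjusted p = 0.0554, 0.101, 0.0684 and 0.0949 by limma). Of the lists, the number past the test with the block was 1 against 8 without it in the actin-linking complex, 1 against 3 in the dystroglycan complex, 2 against 4 in the other basement membrane proteins, 1 against 4 in the other ligands, 0 against 1 in the fibrillar collagens and 3 against 5 in the smooth muscle markers.

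The sign turned for 9 genes not past the test. With an array left out, log2 fold changes lay between -0.15 and 0.21 for Itga3, -0.13 and 0.05 for Itga9, -0.07 and 0.00 for Itga10, -0.02 and 0.10 for Itgb6, -0.09 and 0.05 for Lama3, -0.01 and 0.19 for Lamb3, -0.03 and 0.13 for Nid1, -0.04 and 0.11 for Nid2 and -0.00 and 0.46 for Fn1, and the difference of Nid2 minus Nid1 between -0.06 and 0.06. Median centring turned Nid2 to -0.00. The cause was not tested.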
